A study of Mus musculus with 12 samples.

Results

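The potassium channel genes were taken as every array probe with 1 gene symbol that begins with Kcn followed by a lower-case letter. This gave 90 genes of the 19505 with a symbol on the array, each measured by 1 probe. They were 15 pore subunits of the voltage-gated Kv type, 3 of the KCNQ type, 8 of the EAG, ERG and ELK type, 15 of the inward rectifier type, 14 of the two-pore-domain type and 7 of the calcium- or sodium-activated type. The others were 10 silent Kv modifier subunits, 16 auxiliary subunits and 2 genes of other kinds, a channel regulator (Kcnrg) and a long noncoding RNA (Kcnq1ot1).

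Potassium channels let potassium leave the cell, which pulls the membrane back to rest and ends the action potential. Voltage-gated channels open as the cell depolarises, inward rectifiers and two-pore channels hold the resting potential, and calcium-activated channels follow activity. In sensory ganglia they set how readily a neuron fires, and loss of several of them after nerve injury is known to accompany pain.

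Neurons of the mouse trigeminal ganglion (TG), which carry sensation from the face and mouth, were grown in primary culture on laminin and received scramble miRNAs, miR-21, miR-34a or miR-324 by transfection, with 3 arrays for each. The labels give no strain, age or sex and do not name the arm of miR-324. Nor do they state whether replicate arrays were separate cultures or animals, and the p-values then describe no more than the spread of these samples, which could be technical. Biotin-labelled cDNA was hybridised to Clariom S Mouse arrays, and every level below is a log2 signal with no unit, so a difference of 1 is 2-fold.

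For orientation, the mature mouse sequences of the transfected miRNAs are shown, from RefSeq (GRCm38.p6), with the seed (bases 2 to 8) in capitals because the seed is the part that pairs with target transcripts. Both arms of miR-324 are given, since the labels name neither, and the labels do not give the transfected sequences themselves. The loci are chr11:86584120-86584141 on the minus strand for miR-21a-5p and, on the plus strand, chr4:150068473-150068494 for miR-34a-5p, chr11:70012060-70012082 for miR-324-5p and chr11:70012095-70012114 for miR-324-3p.
mmu-miR-21a-5p: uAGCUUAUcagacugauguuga
mmu-miR-34a-5p: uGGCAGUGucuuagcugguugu
mmu-miR-324-5p: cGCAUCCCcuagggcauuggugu
mmu-miR-324-3p: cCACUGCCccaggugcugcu
The 4 seeds differ. In the RefSeq set miR-21a-5p shares its seed with miR-21c, and miR-34a-5p with miR-34b-5p, miR-449a-5p and miR-449c-5p. The seed of miR-324-3p is the reverse complement of that of miR-34a-5p. Seed sites in the channel transcripts were not analysed here.

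Arrays of 1 group did not all resemble each other, and this bears on every comparison. Titles of 4 arrays (scramble 1 and 2, miR-34a 1 and 2) carry a suffix called A here, those of scramble 3 and miR-324 2 another, called B, and the other 6 carry none. What the suffixes stand for is not stated. The titles of the 2 suffix B arrays are also the only ones with the word mimic, so that word and suffix B cannot be told apart. All 16 pan-neuronal genes of a marker list were measured, with a median between 10.8 (miR-34a 3) and 14.4 (miR-34a 1). Of 18 sensory neuron genes 15 were measured, with a median between 6.63 (miR-34a 3) and 11.1 (scramble 2). Pou4f1, a transcription factor that defines sensory neurons, lay between 9.92 and 14.09 on the 12 arrays. Trpv1, the capsaicin receptor of nociceptors, lay between 3.54 and 7.94 and was under 5 on miR-34a 3 (3.54) and miR-324 1 (3.75).

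Markers of other cells also differed by array. The median of 9 endothelial markers was 9.59 to 10.01 on the 4 suffix A and 3 miR-21 arrays and 11.92 to 13.95 on scramble 3, miR-34a 3 and the 3 miR-324 arrays. The median of 11 macrophage markers was 8.64 to 9.20 on the suffix A arrays and 4.37 to 5.44 on the other 8. Among 9 pituitary genes, Prl, the prolactin gene, stood at 14.92 on scramble 3 and at 14.26 to 15.17 on the miR-324 arrays, and at 3.37 to 4.83 on the other 8. In such bulk samples fewer cells of a type and less RNA per cell cannot be told apart.

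**Figure D1:**
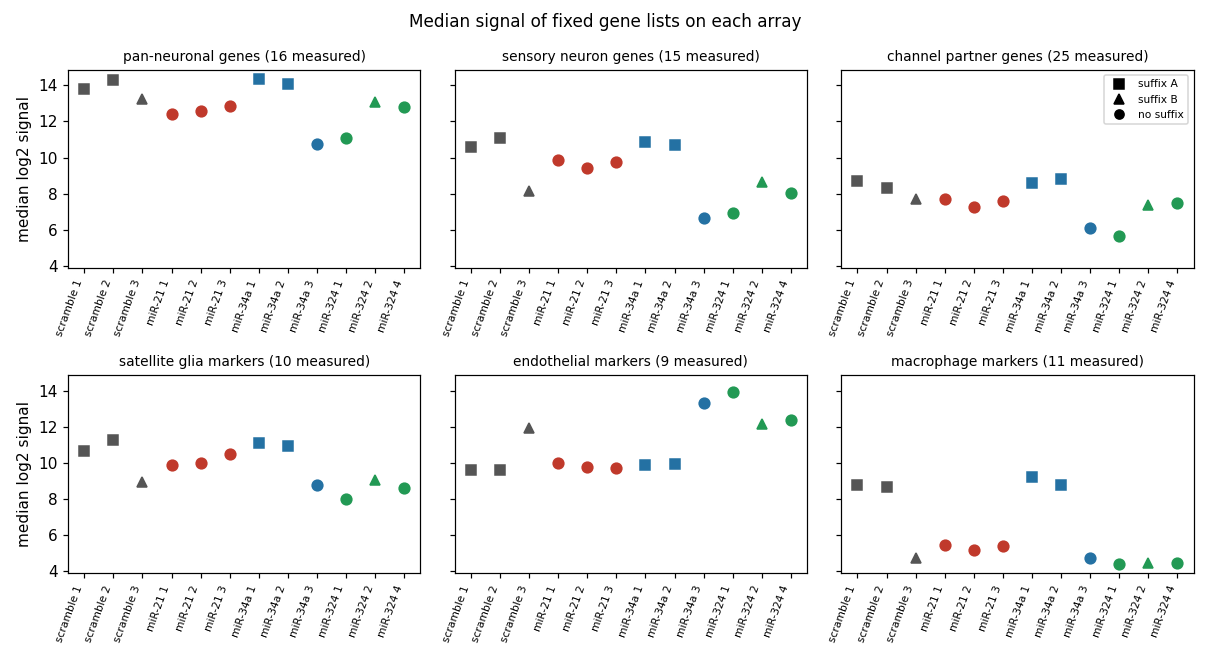
Each panel plots the median log2 signal (vertical axis) of 1 list of marker or partner genes on each of the 12 arrays (horizontal axis), with squares for suffix A, triangles for suffix B and circles for no suffix. The suffix A arrays hold the 4 highest sensory neuron medians, and miR-34a 3 and miR-324 1 the 2 lowest, at 6.63 and 6.93.

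Of the 90 channel genes, 64 exceeded a log2 signal of 5 on at least 1 array and 26 stayed under it on all 12 and were treated as near the array floor. Over all genes tested 25.4% stayed under 5. Near the floor were 7 of 15 inward rectifier genes, 4 of 15 Kv genes, 4 of 14 two-pore genes, 4 of 10 silent modifiers, 4 of 16 auxiliary genes, 2 of 8 EAG, ERG and ELK genes and 1 of 7 calcium- or sodium-activated genes. None of the 3 KCNQ genes was. Just under the limit lay Kcnk13, Kcnf1 and Kcna5, each with a maximum of 4.96, and Kcne2 at 4.90. Just over it lay Kcnj6 at 5.02, Kcnj8 at 5.03, Kcnk9 at 5.09 and Kcnv2 at 5.14. A limit of 4.5 would have kept 73 genes and a limit of 6 would have kept 45.

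Several near-floor genes have a known place in sensory ganglia. Kcnk18, the TRESK background channel linked to migraine, lay between 3.11 and 4.39. Kcnj3 and Kcnj9, subunits of the G-protein-gated rectifiers that opioid receptors open, lay between 3.00 and 3.56 and between 3.73 and 4.68. Kcnj11, the pore of the ATP-sensitive channel, lay between 3.16 and 4.58. Kcnd2, an A-type pore gene, lay between 3.05 and 3.70, whereas its relatives Kcnd1 and Kcnd3 reached 11.61 and 8.69. Signals of different probes are not a measure of relative abundance, and a probe near the floor shows only that no clear signal was measured.

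The 10 genes with the highest mean signal were, in order, Kcnip4, Kcnab2, Kcnip3, Kcnmb1, Kcnd1, Kcna6, Kcnab1, Kcnb2, Kcnk1 and Kcnh2. Of these, 5 are auxiliary: Kcnip3 and Kcnip4 encode calcium-binding KChIP partners of the Kv4 pores, Kcnab1 and Kcnab2 encode cytoplasmic Kv beta subunits, and Kcnmb1 encodes a beta subunit of the large-conductance calcium-activated channel. Their means over 12 arrays ran from 12.86 (Kcnip4) to 7.76 (Kcnh2). The range over arrays was widest for Kcnd1 (5.56), Kcnip3 (5.09), Kcnab2 (4.88), Kcnip4 (4.64), Kcnb2 (4.24), Kcnh6 (4.15), Kcnip1 (3.86) and Kcnj2 (3.83). Of these 8, 5 are also among the 10 brightest.

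**Figure D2:**
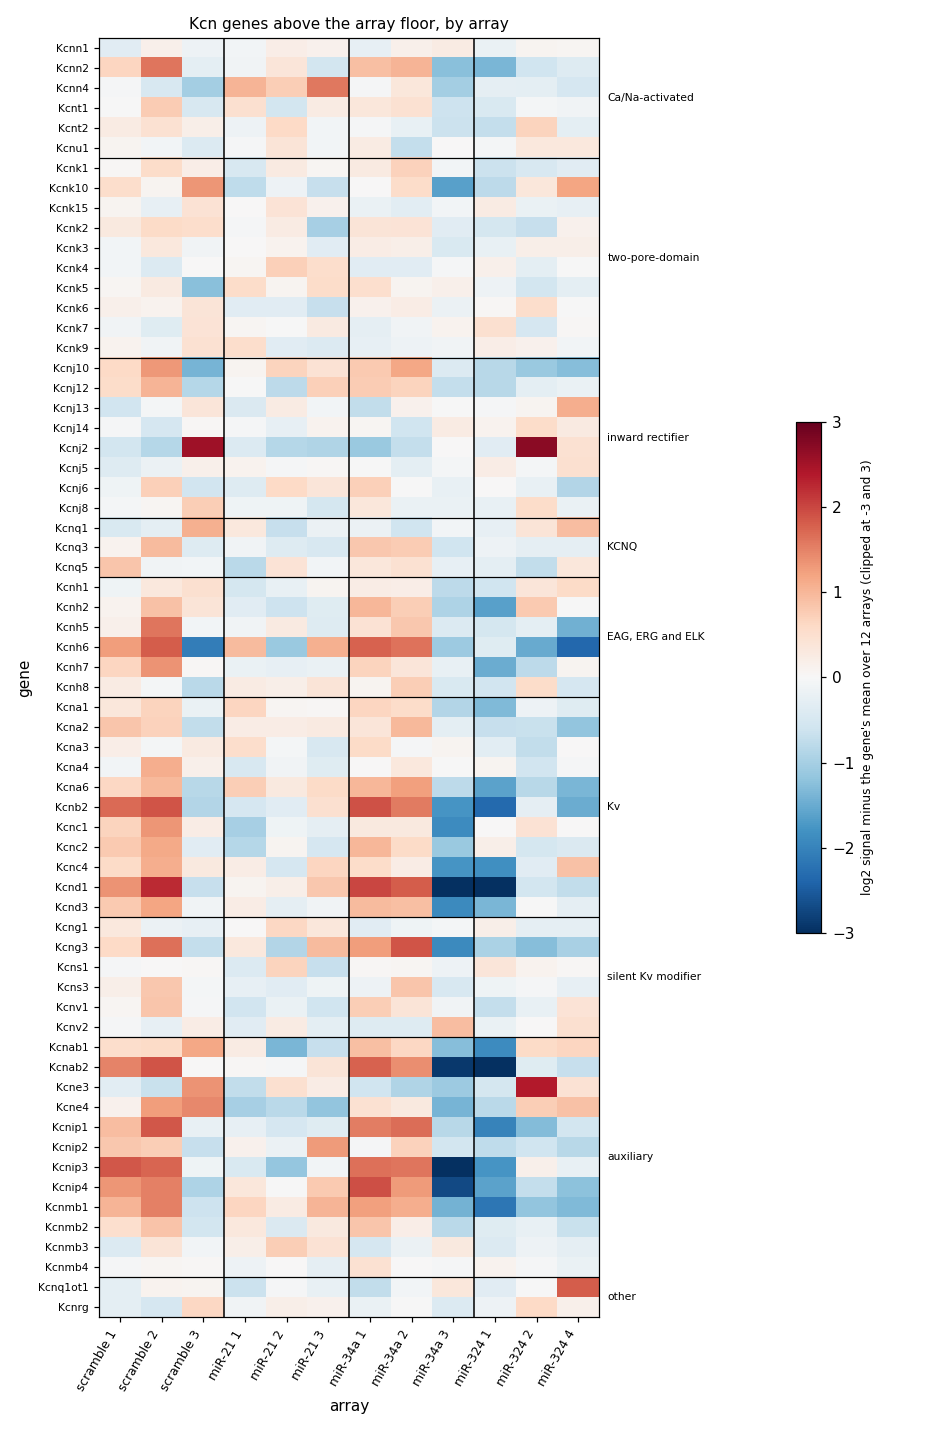
Each row is 1 of the 64 potassium channel genes above the array floor, each column 1 of 12 arrays, and colour gives the log2 signal minus that gene's mean over the arrays, clipped at -3 and 3. Red cells gather on scramble 1 and 2 and miR-34a 1 and 2, and the deepest blue cells on miR-34a 3 and miR-324 1, among the Kv and auxiliary rows.

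Kcnd1, an A-type Kv4 pore subunit, showed the widest range. Its signal was 10.72, 11.61 and 8.70 on scramble 1 to 3, 9.47, 9.56 and 10.19 on miR-21, 11.38, 11.19 and 6.20 on miR-34a, and 6.05, 8.84 and 8.65 on miR-324. The 4 suffix A arrays were the 4 highest, and miR-34a 3 and miR-324 1 lay more than 2 units under all others. Differences from scramble were -0.60, -0.75 and -2.50, with a standard error (SE) of 1.22 for each, so none exceeded the spread within groups by the test (limma adjusted p = 0.83, 0.999 and 0.35).

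Of the other 7 wide-ranging genes, 6 also had the 4 suffix A arrays at the top, and Kcnh6 among these is described further on. Kcnip3 stood at 12.72, 12.59 and 10.72 on scramble, 10.39, 9.68 and 10.77 on miR-21, 12.49, 12.45 and 7.63 on miR-34a and 9.08, 11.00 and 10.63 on miR-324. Kcnip4 stood at 14.19, 14.38 and 11.92, at 13.19, 12.85 and 13.64, at 14.80, 14.13 and 10.16, and at 11.25, 12.15 and 11.63 on the same arrays. In both, the suffix A arrays were highest and miR-34a 3 lowest.

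Kcnab2, a Kv1 beta subunit that also works as an oxidoreductase, stood at 13.41, 13.80 and 11.94 on scramble, 11.96, 11.88 and 12.31 on miR-21, 13.70, 13.32 and 9.02 on miR-34a and 8.92, 11.55 and 11.22 on miR-324. Kcnb2, a delayed rectifier pore subunit, stood at 9.62, 9.80 and 7.03, at 7.40, 7.58 and 8.39, at 9.83, 9.48 and 6.15, and at 5.59, 7.64 and 6.42. Kcnip1, the first KChIP, stood at 8.44, 9.36 and 7.28, at 7.26, 7.00 and 7.15, at 9.03, 9.18 and 6.68, and at 5.5, 6.20 and 6.96. Across all 3 genes the suffix A arrays lay above the other 8, and the arrays of the scramble and miR-34a groups were split.

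In all, 14 of 90 channel genes (15.6%) were higher on each of the 4 suffix A arrays than on any of the other 8, against 6.63% of all genes. Beside the 6 genes described above they were Kcna2, Kcnc2, Kcnd3, Kcnh6, Kcnh7, Kcnk12, Kcnn2 and Kcnq3. As the count of lowest values shows, 17 of 90 channel genes (18.9%) had their minimum on miR-34a 3 and 16 (17.8%) on miR-324 1, against 8.98% and 8.86% of all genes. Scramble 2 held the maximum for 23 (25.6%), against 10.9% of all genes. The pan-neuronal, sensory neuron, satellite glia, macrophage and partner gene medians also separated the suffix A arrays from the rest. The part of these lists in these counts was not tested.

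**Figure D3:**
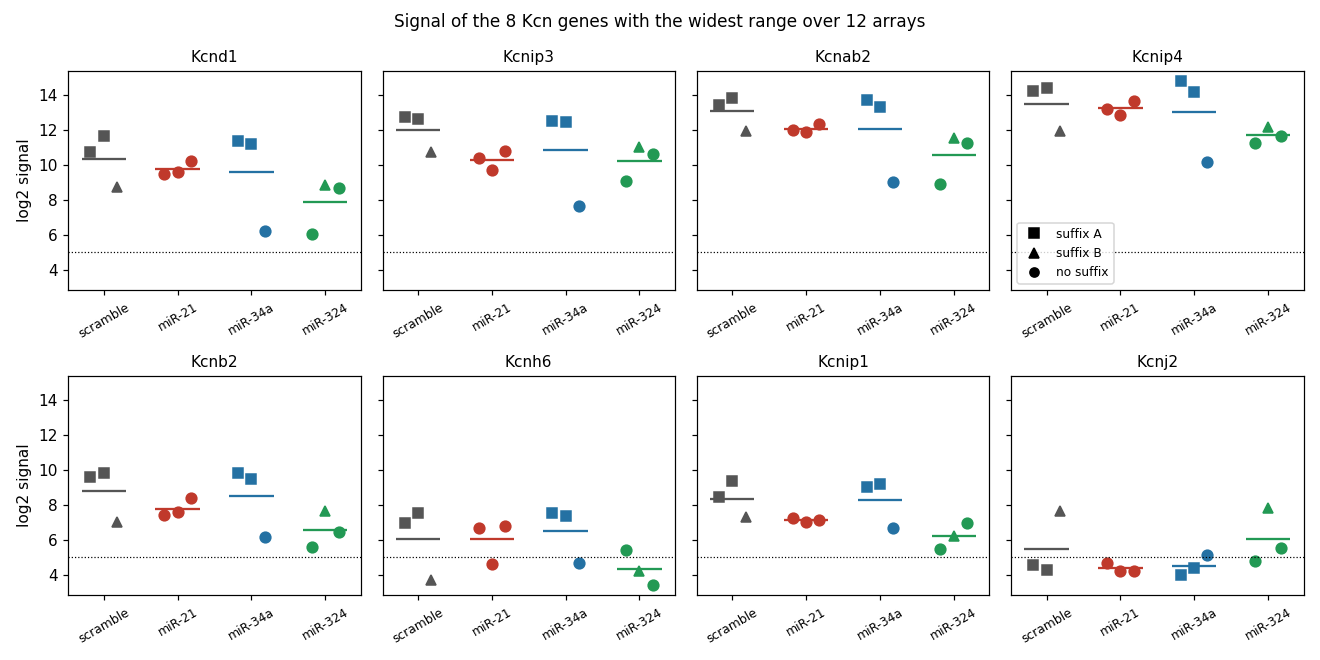
Log2 signal (vertical axis) of the 8 potassium channel genes with the widest range, by group (horizontal axis), with 1 point per array, a line at the mean of 3 arrays, squares for suffix A, triangles for suffix B, circles for no suffix, and a dotted line at the floor of 5. In 7 genes the squares lie above every other point, and in Kcnj2 the triangles do, at 7.65 and 7.82.

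Kcnj2, which encodes the strong inward rectifier Kir2.1, had another pattern. It stood at 4.56, 4.25 and 7.65 on scramble, 4.68, 4.24 and 4.21 on miR-21, 3.99, 4.39 and 5.12 on miR-34a and 4.76, 7.82 and 5.55 on miR-324. The 2 suffix B arrays were the highest by more than 2 units, in different groups. Kcne3, an auxiliary subunit that opens KCNQ1, was likewise highest on scramble 3 (6.61) and miR-324 2 (7.65), with the other 10 arrays between 4.18 and 5.74. Kcnj8 (5.03 and 4.84, other arrays up to 4.63), Kcnk6 (5.68 and 5.82, up to 5.52) and Kcnrg (5.19 and 5.16, up to 4.74) shared the order by small margins. Those with this order were 5 of 90 (5.56%), against 2.08% of all genes.

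Kcnh6, an ERG-type pore subunit, was the most variable channel gene of the scramble group, with 6.99, 7.55 and 3.68 and an SD of 2.09 (n = 3). On miR-21 it stood at 6.70, 4.64 and 6.80, on miR-34a at 7.52, 7.37 and 4.66, and on miR-324 at 5.39, 4.23 and 3.40. The median SD of a channel gene within scramble was 0.42, against 0.30 over all genes, and within miR-34a 0.43 against 0.32. Within miR-21 and miR-324 it was 0.29 and 0.37, against 0.28 and 0.33.

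Because Kcnh6 and Kcnj2 were highest on different sets of arrays, 250 bases before a transcript start of each are shown, both on the plus strand of GRCm38.p6 and from the RefSeq promoter table. For Kcnh6 that start lies inside the annotated gene, so part of the window does too. Capitals mark exact matches, on either strand, to the 5 short motifs listed after the sequences. In Kcnh6 (chr11:106007898-106008147) they mark TTCAGCACC and GGACAGC, both parts of the site of REST, a repressor of neuronal genes that is in the partner list below, and 3 copies of GGGCGG, the core of an Sp1 site. In Kcnj2 (chr11:111065914-111066163) they mark 2 copies of GGGCGG and 1 of CCAAT, which lies on the minus strand and so reads reversed and complemented.
Kcnh6: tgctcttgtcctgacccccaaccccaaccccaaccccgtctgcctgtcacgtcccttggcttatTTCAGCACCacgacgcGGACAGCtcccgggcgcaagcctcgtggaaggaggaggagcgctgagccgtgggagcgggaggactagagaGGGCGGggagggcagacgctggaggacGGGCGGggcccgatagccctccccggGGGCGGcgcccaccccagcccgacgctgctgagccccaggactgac
Kcnj2: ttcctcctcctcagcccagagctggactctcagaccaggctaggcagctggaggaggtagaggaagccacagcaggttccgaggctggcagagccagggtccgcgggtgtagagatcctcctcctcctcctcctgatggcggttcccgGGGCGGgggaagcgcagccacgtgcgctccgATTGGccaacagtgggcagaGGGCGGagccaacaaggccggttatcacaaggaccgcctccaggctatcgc
The REST letters were searched after the Kcnh6 sequence had been seen. TTCAGCACC was found in 0.301% of 32851 windows of this length and in 1 of 94 windows of channel genes, which is the Kcnh6 window, 186 bases before the start used in that table. GGACAGC was found in 5.28% of all windows and 10.6% of channel windows. In Kcnh6 it begins 170 bases before that start, with other bases between it and TTCAGCACC. Whether these letters form 1 site was not tested. For GGGCGG the shares were 32.7% of all windows and 43.6% of channel windows. For CCAAT they were 33.8% and 29.8%. The letters of the box at many tissue-specific starts, TATAAA, were found in 12.4% and 3.19%. Windows were at hand for 69 of the 90 genes, and a match describes letters only, not a bound site. Rest itself stood at 9.14, 9.33 and 9.45 on scramble, 10.49, 10.32 and 10.25 on miR-21, 9.13, 9.28 and 10.51 on miR-34a, and 10.46, 9.87 and 10.10 on miR-324.

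Each miRNA group was then compared with the same 3 scramble arrays, so the 3 comparisons are not independent of each other. With miR-21, limma called 0 of 90 channel genes at an adjusted p under 0.05, against 1.04% of all genes (0.685% higher and 0.358% lower). At an unadjusted p under 0.05 the count was 9 (3 higher, 6 lower), or 10%, against 16.6% of all genes (10.6% higher and 6.08% lower). The groups did not overlap for 4 genes that were higher, against 16.9% of all genes in that direction, and for 13 that were lower, against 8.75%. In the mean 35 genes were higher and 55 lower, with a median difference of -0.11, where 61.6% of all genes were higher and 38.3% lower and the median of all was 0.13. No scramble array has a title without a suffix, so miR-21 has no comparison within 1 suffix. With the suffix as a fixed block limma called 7 channel genes, all higher (3.49% of all genes called). Among them were Kcnip4 (2.70), Kcnd1 (3.16), Kcnb2 (1.95) and Kcnn4 (2.40). Without the block Kcnip4 (-0.27), Kcnd1 (-0.60) and Kcnb2 (-1.03) were lower than scramble, so the block turned their sign.

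Kcnn4, the intermediate-conductance calcium-activated channel known from immune cells, glia and dividing cells, was closest to the threshold. It stood at 5.90, 5.61 and 6.46 on miR-21 and at 4.84, 4.39 and 3.86 on scramble, so that the groups did not overlap. It stood at 4.85, 5.23 and 3.87 on miR-34a and 4.62, 4.58 and 4.37 on miR-324, and miR-21 held the 3 highest of the 12 arrays. Mean levels were 5.99 ± 0.43 and 4.36 ± 0.49 (SD, n = 3), a difference of 1.63 ± 0.36 (SE, adjusted p = 0.0558), or 3.09-fold. A fit on the miR-21 and scramble arrays alone, whose spread excludes the other groups, gave an adjusted p of 0.028, and that fit called 2 of 90 channel genes (4.63% of all genes). Without miR-34a 3 and miR-324 1, left out after the data were seen, 5 channel genes were called (8.27% of all genes), with an adjusted p of 0.0068 for Kcnn4. With all 12 arrays, limma gave Kcnn4 an adjusted p of 0.0032 with the suffix as a fixed block. With the title number as a block it was 0.21. The call thus depends on which arrays enter and on the model. The direction was the same when each array of either group was left out, with differences between 1.38 and 1.86.

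Marker lists of other cells differed in both directions with miR-21. All 8 measured markers of myelinating Schwann cells were higher in the mean with miR-21 (2 called by limma), with list medians of 7.13 to 7.63 on the miR-21 arrays and 5.20 to 5.27 on scramble. The cell cycle list was higher for 9 of 9 genes (0 called), with medians of 8.81 to 9.14 against 6.06 to 8.52. All 11 macrophage markers were lower (0 called), with medians of 5.16 to 5.44 against 4.71 to 8.76, as were all 9 endothelial markers (0 called), with 9.69 to 10.01 against 9.59 to 11.92. Of 10 satellite glia markers 6 were higher and 4 lower. Of 9 fibroblast markers 4 were higher and 5 lower, and of 10 mural cell markers 7 were higher and 3 lower. In each of these last lists limma called 1 gene, Col1a2 (4.45, adjusted p = 0.029) and Cspg4 (2.65, adjusted p = 0.029), both higher. Over all genes it called 1.04%. On the array miR-34a 3 the Schwann cell median was 7.5, the cell cycle median 5.35 and Kcnn4 3.87. The part of these lists in the Kcnn4 difference was not tested.

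The other genes that were higher without overlap were smaller in size. Kcnk4, the mechanically and heat-gated TRAAK channel, stood at 6.07, 6.73 and 6.54 against 5.93, 5.59 and 6.02, a difference of 0.60 ± 0.24 (SE, adjusted p = 0.23). Kcnk13 (0.43 ± 0.23) and Kcne1 (0.25 ± 0.22) are near the floor on all arrays.

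Kcne4, an auxiliary subunit that damps Kv1 and KCNQ1 currents, was the gene furthest below scramble. It stood at 3.60, 3.79 and 3.41 on miR-21 and 4.72, 5.85 and 6.02 on scramble, a difference of -1.93 ± 0.55 (SE, adjusted p = 0.11). With only those 6 arrays its adjusted p was 0.019, and with the suffix as a fixed block the difference was -0.71 (adjusted p = 0.73). Kcne4 was also low on miR-34a 3 (3.19) and miR-324 1 (3.77), and at 4.88 to 5.48 on the other 4 arrays, so that the low level was not confined to miR-21.

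Among the remaining genes below scramble without overlap, Kcnab1, a Kv1 beta subunit, stood at 8.96, 7.35 and 8.03 against 9.24, 9.30 and 9.87 (-1.36 ± 0.70, adjusted p = 0.35). Kcnc1, a fast Kv3 pore subunit, stood at 4.62, 5.5 and 5.35 against 6.29, 6.95 and 5.83 (-1.20 ± 0.52, adjusted p = 0.27). Kcnip1 (-1.22 ± 0.65) and Kcnk10, the TREK-2 channel (-1.18 ± 0.57), had adjusted p of 0.36 and 0.32. Kcna4, Kcnh2, Kcnh7, Kcnj8, Kcnk2, Kcnk6, Kcns3 and Kcnv1 completed the 13, with differences between -0.90 and -0.50. With the suffix as a fixed block the sign turned for Kcnab1 (0.24), Kcnc1 (0.29) and Kcnip1 (0.29).

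By role, all 3 KCNQ genes and 12 of 15 Kv genes were lower in the mean with miR-21, with medians of -0.37 and -0.22. The median was -0.24 over EAG, ERG and ELK genes (5 of 8 lower) and -0.15 over auxiliary genes (10 of 16 lower). Silent modifiers (7 of 10 lower) and two-pore genes (8 of 14 lower) had medians of -0.13 and -0.06. For calcium- or sodium-activated genes it was 0.19 (3 of 7 lower). Of the 15 inward rectifiers 9 were higher, with a median of 0.11, close to the values over all genes. Kcnq3 and Kcnq5, pore subunits of the M-current that restrains repetitive firing, differed by -0.54 ± 0.39 and -0.37 ± 0.38. The Kv1 genes of juxtaparanodes, Kcna1 and Kcna2, differed by -0.03 ± 0.43 and -0.02 ± 0.41. None of the 4 passed the test. The pan-neuronal median was 12.4 to 12.9 on the miR-21 arrays and 13.2 to 14.3 on scramble, with 14 of 16 genes lower and 0 called, and its part in these counts was not tested.

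With miR-34a, limma called 0 of 90 channel genes, as it did over all genes (0%), and 2 had an unadjusted p under 0.05 against 1.46% of all genes. The groups did not overlap for 1 gene that was higher (3.49% of all genes) and 1 that was lower (2.31%). The higher one was Kcnj16, a rectifier subunit that pairs with Kcnj10 and was near the floor, at 4.02, 4.14 and 3.25 against 3.21, 3.24 and 2.81 on scramble (0.72 ± 0.26, adjusted p = 0.999). The lower one was Kcnt2, a sodium-activated channel, at 5.87, 5.69 and 5.27 against 6.14, 6.36 and 6.08 (-0.58 ± 0.34, adjusted p = 0.999). In the mean 35 genes were higher (55.9% of all genes) and 55 lower (44%), with a median of -0.07, against 0.04 for all genes.

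The miR-34a group was split by 1 array, miR-34a 3. Taking the difference of miR-34a 3 from the mean of miR-34a 1 and 2, 30 of 90 channel genes (33.3%) differed by over 2-fold, against 18.4% of all genes, and the largest was Kcnd1. Between scramble 3 and scramble 1 and 2 the share was 27.8%, against 12.4%. Within suffix A alone (2 arrays against 2), 0 of 90 channel genes differed by over 2-fold, against 0.291% of all genes, with a median of 0.02 and extremes of -0.71 (Kcnc1) and 0.86 (Kcnj16). Kcnd1, Kcnip3 and Kcnab2, which were lower by 0.75 to 1.15 over all arrays, differed there by 0.12, -0.19 and -0.10.

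**Figure D4:**
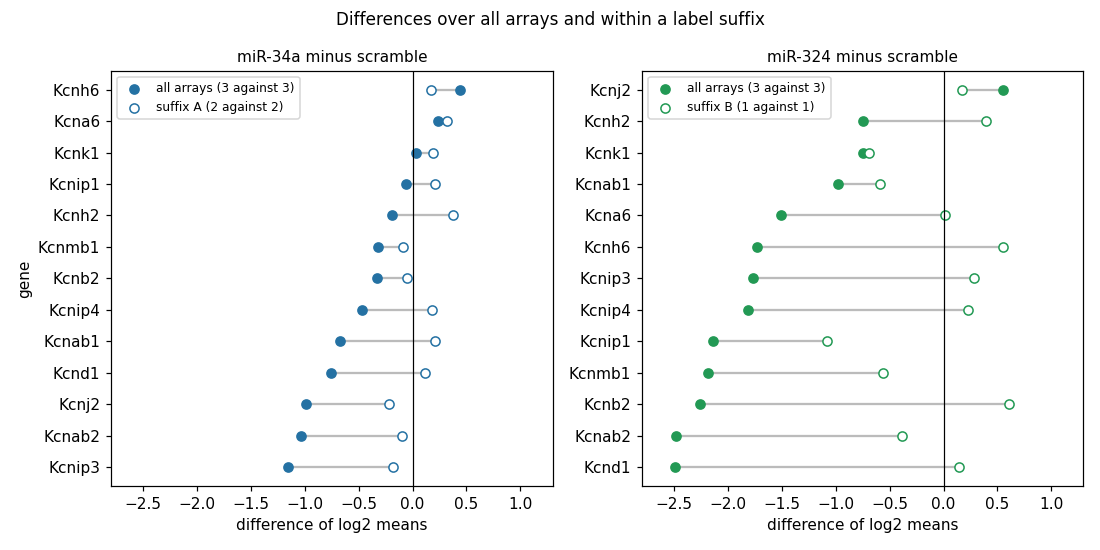
Difference of log2 means from scramble (horizontal axis) for 13 potassium channel genes, those named for high or wide-ranging signal, over all arrays (filled) and within arrays of 1 suffix (open), for miR-34a (left, 2 arrays against 2) and miR-324 (right, 1 against 1). For Kcnd1 the difference is -0.75 over all arrays and 0.12 within suffix A for miR-34a, and -2.50 and 0.14 within suffix B for miR-324.

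With miR-324, limma called 0 of 90 channel genes and 0% of all genes, while 15 channel genes had an unadjusted p under 0.05 (2 higher, 13 lower), or 16.7%, against 14.7% of all genes (8.11% higher and 6.59% lower). The groups did not overlap for 3 genes that were higher (12.6% of all genes) and 9 that were lower (7.3%). In the mean 32 were higher (58.4% of all genes) and 58 lower (41.5%), with a median of -0.19 against 0.09 for all genes. The smallest adjusted p of a channel gene was 0.309.

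Auxiliary and Kv genes lay furthest below scramble. The median difference was -0.68 over 16 auxiliary genes (11 lower) and -0.79 over 15 Kv genes (12 lower). It was -0.44 over 3 KCNQ genes, -0.43 over 8 EAG, ERG and ELK genes, -0.05 over 14 two-pore genes and -0.01 over 15 inward rectifiers. Near the floor, where differences are understated, were 7 of the 15 inward rectifiers and 4 genes each of the two-pore, Kv and auxiliary classes. Within suffix B (1 array against 1) the auxiliary and Kv medians were -0.06 and 0.04. All 16 pan-neuronal genes (median -1.64) and all 15 sensory neuron genes (median -1.88) were also lower in the mean, with 0 called.

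Kcnab2 stood at 8.92, 11.55 and 11.22 against 13.41, 13.80 and 11.94 on scramble (-2.49 ± 1.05, adjusted p = 0.32), without overlap. Kcnmb1 stood at 7.58, 8.56 and 8.42 against 10.76, 11.25 and 9.12 (-2.19 ± 0.67, adjusted p = 0.31), and on miR-21 it stood at 10.39, 9.99 and 10.76. For Kcnip1, described above, the difference was -2.14 ± 0.65 (adjusted p = 0.31), again without overlap. With the suffix as a fixed block Kcnab2 differed by 0.21, with the sign turned, Kcnmb1 by -0.50 and Kcnip1 by -0.71.

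Kcng3, a silent modifier of Kv2, stood at 4.55, 4.22 and 4.53 against 6.10, 7.15 and 4.77 (-1.57 ± 0.85, adjusted p = 0.39). Kcnn2, a small-conductance calcium-activated channel, stood at 3.72, 4.5 and 4.71 against 5.73, 6.71 and 4.81 (-1.44 ± 0.60, adjusted p = 0.32). In each of these genes scramble 3 was the lowest scramble array and the one nearest the miR-324 arrays. With the suffix as a fixed block Kcnn2 differed by -0.08 and Kcng3 by 0.31. Kcnh5, Kcnk1, Kcnk2 and Kcns2 completed the 9, with differences between -1.31 and -0.62.

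Leaving out scramble 3 changed calls. Without it limma called 2 of 90 channel genes, a share near the 1.96% of all genes. They were Kcna2, a juxtaparanodal Kv1 pore (-1.61, adjusted p = 0.043), and Kcnj10, the Kir4.1 channel of satellite glia (-2.03, adjusted p = 0.043). The scramble arrays left in that fit both carry suffix A, which no miR-324 array carries, so group and suffix cannot be told apart there. Kcna2 stood at 6.85, 6.71 and 5.27 on scramble and at 5.32, 5.35 and 4.84 on miR-324. Kcnj10 stood at 7.82, 8.53 and 5.82 on scramble and at 6.39, 6.11 and 5.95 on miR-324, so scramble 3 lay between the miR-324 arrays in Kcna2 and below all 3 in Kcnj10. Kcna6, another Kv1 pore subunit, stood at 9.99, 10.34 and 8.54 against 7.78, 8.55 and 8.00 (-1.51 ± 0.53, adjusted p = 0.31).

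Scramble 3 shared other values with the miR-324 arrays. The satellite glia median, a list that does not include Kcnj10, was 8.95 on scramble 3 and 7.96 to 9.06 on miR-324, against 10.7 and 11.2 on scramble 1 and 2, and with Prl and the endothelial markers above it put scramble 3 nearer to miR-324. Within suffix B (1 array against 1, no test), 6 of 90 channel genes differed by over 2-fold, 6.67% against 4.97% of all genes, with a median of -0.05. There Kcnd1 differed by 0.14, Kcnip3 by 0.28, Kcnb2 by 0.61 and Kcna6 by 0.01, whereas Kcnip1 differed by -1.08, Kcnmb1 by -0.56 and Kcnab2 by -0.39. What part the other markers had in the miR-324 differences was not tested.

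The 3 genes higher with miR-324 without overlap were small in size. Kcnj14, an inward rectifier, stood at 5.78, 6.22 and 5.94 against 5.65, 5.18 and 5.72 (0.46 ± 0.26, adjusted p = 0.41). Kcne1 (0.60 ± 0.22, adjusted p = 0.31) and Kcnh3 (0.22 ± 0.21, adjusted p = 0.63) are near the floor.

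**Figure D5:**
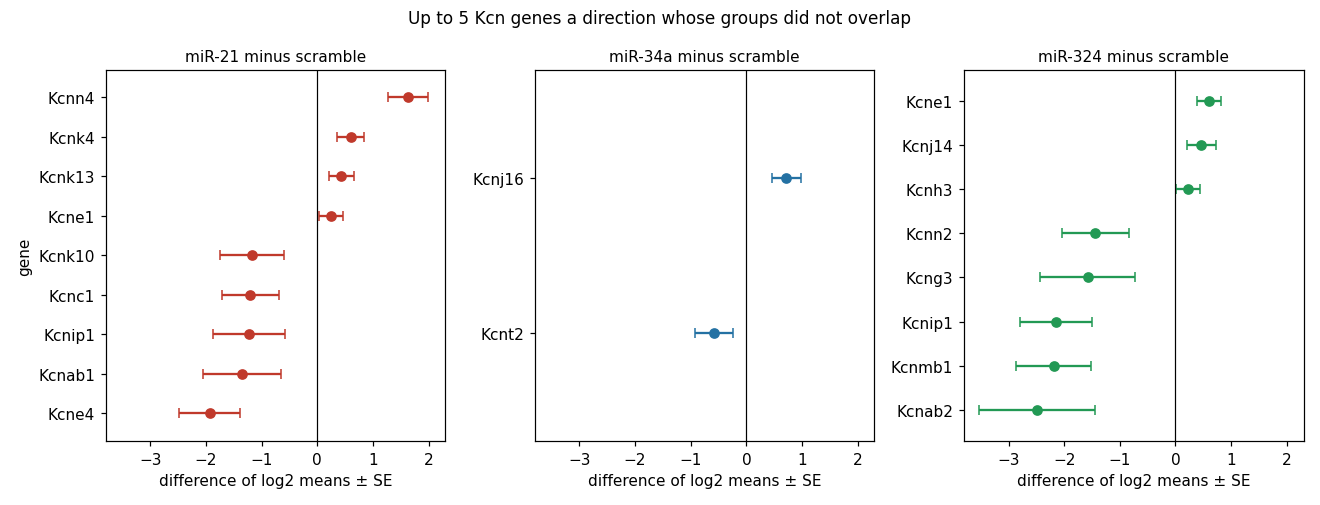
Difference of log2 means from scramble (horizontal axis, points) with its SE from limma (bars), for up to 5 potassium channel genes in each direction whose 3 arrays did not overlap with the 3 scramble arrays. None passed an adjusted p of 0.05, and Kcnn4 with miR-21 (1.63 ± 0.36) came closest, at 0.0558.

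Other genes with a known place in sensory neurons were narrower in range. Kcnn1, a small-conductance channel, lay between 6.92 and 7.51 on all 12 arrays, and Kcnmb4, the neuronal large-conductance beta subunit, between 6.20 and 6.93. Kcnt1, the sodium-activated Slack channel, lay between 6.67 and 8.03, and its differences from scramble were -0.03, -0.02 and -0.29, each with an SE of 0.38. Kcnk3, the acid-sensitive TASK-1 channel, lay between 4.72 and 5.51, and Kcns1, a modifier linked to pain sensitivity, between 3.84 and 5.22. Kcna3, a Kv1 pore subunit, lay between 4.11 and 5.42. Kcnc4, a Kv3 pore subunit, had a wider range, from 3.67 on miR-324 1 and 3.75 on miR-34a 3 to 6.60 on scramble 2. Missing the threshold does not show that levels were equal.

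Proteins that bind or place potassium channels, with the related HCN pacemaker channels and REST, were read as a partner list. Of 26 genes 25 were measured, and limma called 0 of them in each comparison (5, 0 and 6 at an unadjusted p under 0.05 for miR-21, miR-34a and miR-324, where 16.6%, 1.46% and 14.7% of all genes were). With miR-21, 9 were higher and 16 lower (61.6% and 38.3% of all genes), with a median of -0.19, and the smallest adjusted p was 0.137, of Dlg2, a scaffold of Kv1 clusters (-1.10 ± 0.34). Rest was higher by 1.05 ± 0.33 (adjusted p = 0.14), and Ank3, the anchor of channels at the axon initial segment, by 1.10 ± 0.40 (adjusted p = 0.20).

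With miR-324, 8 partner genes were higher and 17 lower (58.4% and 41.5% of all genes), with a median of -0.65. Dpp6, the transmembrane partner of Kv4, differed by -2.14 ± 0.92 and Dlg4, the PSD-95 scaffold, by -2.13 ± 0.83 (adjusted p = 0.33 and 0.32). With miR-34a, 9 were higher and 16 lower (55.9% and 44% of all genes), with a median of -0.12. Dpp6 stood at 11.39, 11.57 and 10.03 on scramble, 9.76, 9.45 and 9.80 on miR-21, 11.75, 11.28 and 7.77 on miR-34a and 7.19, 9.51 and 9.86 on miR-324. As in Kcnd1 and Kcnip3 of the same channel complex, the suffix A arrays were highest and miR-34a 3 and miR-324 1 lowest.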

How the data were processed

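Expression was measured on 12 Clariom S Mouse arrays, 3 per group. The deposited values are log2 signals, made by the authors with Transcriptome Analysis Console 4.0 and RMA (background correction, quantile normalization and summary of probes), per the submitters' processing notes. RMA removes differences in total signal between arrays, and low values understate differences. A genome build for the array is not given in the sources used here. Array medians lay between 5.91 and 6.06, no arrays held identical values, and 3 arrays a group limit the precision.

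Of 22206 probes, 19572 had 1 gene symbol in the platform annotation, and 0 of them had a symbol that differed from RefSeq (GRCm38.p6). The other 2634 had no symbol or more than 1 and were left out. The R package limma, version 3.58.1 (R 4.3.3), fitted group means over the 12 arrays with lmFit and eBayes on 8 residual degrees of freedom, and p-values were adjusted by Benjamini-Hochberg over the 19572 probes. Tests were two-sided. The procedure was tested on simulated data with independent arrays and no gene's spread above the median spread. That setting is easier than these data and leaves out the likeness of arrays with the same suffix.

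Members and gene lists were chosen with earlier results of these data known. Channel genes named in the text are the 10 with the highest mean, the 8 with the widest range, up to 5 a direction per comparison whose groups did not overlap, 4 on each side of the floor limit, any called gene, and a list with a known place in sensory ganglia. Some genes of that list and of the partner list were not analysed here. Further genes were named after their values were seen. Marker lists were pan-neuronal, sensory neuron, satellite glia, myelinating Schwann cell, fibroblast (medians 7.43 to 11.4 over arrays), endothelial, mural cell (5.71 to 7.06), macrophage, pituitary (3.95 to 7.41) and cell cycle genes. Arrays keep the numbers of their titles, except scramble 3, whose title carries number 1 again with suffix B. Whether shared numbers pair samples could not be settled. Deviations of same-numbered arrays had correlations between -0.41 and 0.36, and those of differently numbered arrays between -0.43 and 0.48. Pairs with the same suffix had a median of 0.31, with 0.31 to 0.36 within suffix A. The suffix B pair, scramble 3 and miR-324 2, had 0.0086. Pairs that share no suffix ran from -0.43 to 0.48. This check does not separate suffix from number. Alternatives were another quantile normalization, median centring, brighter probes only, a variance trend, the compared groups only, the title suffix as a fixed or random block or arrays of 1 suffix only, the title number as a block, the mean of a gene's probes, and leaving out each array.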

Additional observations from a re-analysis of the deposited data

How the results depend on the processing

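With limma, the number of called channel genes stayed at 0 for miR-34a under every alternative run, and for miR-21 and miR-324 under all but the following. For miR-21 it was 7 with the title suffix as a fixed block (3.49% of all genes), 2 with only the miR-21 and scramble arrays (4.63%) and 5 without miR-34a 3 and miR-324 1 (8.27%), an alternative chosen after seeing the data. The 7 were Kcna6, Kcnb2, Kcnd1, Kcnh8, Kcnip4, Kcnmb1 and Kcnn4, all higher. Of these, Kcnb2 (-1.03), Kcnd1 (-0.60) and Kcnip4 (-0.27) were lower than scramble without the block. The 2 were Kcne4 and Kcnn4, and the 5 were Kcnab1, Kcnc1, Kcne4, Kcnip3 and Kcnn4. No scramble array carries the title form of the miR-21 arrays, so the fixed block rests on miR-34a and miR-324 arrays that link the forms. For miR-324 it was 2 without scramble 3 (1.96% of all genes), where the scramble arrays left carry a suffix that no miR-324 array has. Leaving out 1 array at a time gave 0 to 2. The median difference was -0.31 with only brighter probes and 0.23 with the fixed suffix block for miR-21, and -0.98 (21 genes) and 0.084 for miR-324. Leaving out 1 array gave medians of -0.16 to -0.04 for miR-21, -0.16 to 0.06 for miR-34a and -0.26 to -0.15 for miR-324. Among the genes named because their groups did not overlap, the fixed suffix block turned the sign of Kcnab1 (0.24), Kcnip1 (0.29) and Kcnc1 (0.29) with miR-21. With miR-324 the fixed suffix block turned that of Kcnh3 (-0.0056), Kcnab2 (0.21) and Kcng3 (0.31). The cause was not tested. With the title number as a replicate block, limma called 0 channel genes in each comparison (2 of all genes for miR-21), and the medians were -0.0099, -0.02 and -0.22. Of 292 alternatives over 19 single-gene results, these 6 reversed and 7 passed the threshold. No channel gene has several probes, so that alternative changed none of them.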
